A study of Mus musculus with 92 samples.

Results

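The translation initiation factors were examined in single mouse bone marrow cells. Members were the gene symbols that begin with Eif followed by a digit: 55 of the 23956 symbols in the table. A member entered the comparisons if 25% or more of the cells in either sort gate had a value above 0. By that rule 51 members were compared, among 7803 genes of all kinds. Of the 51, 45 passed in both gates and 6 (Eif2ak4, Eif2b3, Eif2b5, Eif2d, Eif4ebp2 and Eif4ebp3) in the GMP gate alone, so the rule itself favoured a lower level of those 6 in the other gate. Eif4ebp2, at 31.1% of GMP cells, was the member closest inside the threshold, and Eif2ak3, at 21.3% of CD11b+ GMP-P cells, the closest outside it. Eif3j1 and Eif5a2 peaked at 8.89% and 6.67% of GMP cells, and Eif4e1b was listed at 0 in every cell. These 4 genes differed by -0.19 to 0.0 between the gates and are not counted below.

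All cells came from C57BL/6 mice with the genotype Gfi1-R412X/R412X, that is, both copies of Gfi1 carried the R412X allele, and there were 0 wild type cells. Gfi1 encodes a zinc finger repressor of transcription with a known role in granulocyte formation. Hindlimb marrow was enriched on beads for CD117, the receptor encoded by Kit, and 2 gates were sorted onto a Fluidigm C1 chip: 45 cells labelled GMP (granulocyte-monocyte progenitor) and 47 labelled CD11b+ GMP-P. Ages, any treatment and the number of mice are not stated in the labels. Each gate was therefore 1 sample. Gate, date code and capture cannot be told apart, no test was made, and each SD below is a spread between cells, with no measure of how animals differ.

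Initiation factors bring the small ribosomal subunit, the initiator methionine tRNA and an mRNA together. The eIF4F complex (the cap-binding eIF4E, the scaffold eIF4G and the helicase eIF4A) recruits the mRNA, eIF3 bridges it to the small subunit, and eIF2 carries the initiator tRNA. eIF1, eIF1A and eIF5 govern scanning and recognition of the start codon, and eIF5B joins the large subunit. Cells slow initiation by phosphorylating eIF2, which then traps its exchange factor eIF2B, or through 4E-BP proteins that hold eIF4E. Neutrophil precursors are known to lose much of their protein synthesis machinery as they mature.

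Each value is log2(TPM + 1) as deposited, where TPM is a transcript's length-corrected share of the RNA in 1 cell, and levels of different genes can therefore be compared. The authors also assigned every cell to a named state, and those names are used as given: 24 of the 45 GMP cells were Mono, 6 Gran-1, 5 Multi-Lin, 5 MP, 3 cMoP and 2 Gran-2. In CD11b+ GMP-P, 20 cells were Gran-2, 15 Myelo-2, 4 Gran-1, 3 Myelo-1, 3 Myelo-4, 1 Mono and 1 Multi-Lin. The sources do not say how the states were made, and where their making used initiation factors, differences between states describe the names. The median number of genes above 0 was 5611 in GMP cells, 4632 in cells of the Gran states of CD11b+ GMP-P and 2936 in cells of the Myelo states. TPM keeps no read depth, so the number of genes above 0 stands in for it. A list of 29 granule genes took a median of 6.11% of the TPM of GMP cells, 23.9% in those Gran cells and 57.9% in Myelo cells. Progenitor markers (Kit, Cd34, Fcgr3, Mpo and Elane) summed to medians of 43000 TPM in GMP, 57300 TPM in those Gran cells and 517 TPM in Myelo cells. The most abundant genes weigh most in such a sum, and Kit and Cd34 were not examined alone. The sum therefore does not show that those Gran cells were as progenitor-like as GMP cells. The late granulocyte markers Ltf, Ngp, Camp, Lcn2 and Itgam summed to a median of 37 TPM in GMP and 26400 TPM in CD11b+ GMP-P. Markers of B and T cells, erythroid cells and megakaryocytes were at 0 in most cells of both gates: the 4 B cell markers were above 0 in 0 of 45 GMP cells and in 1 of 47 CD11b+ GMP-P cells.

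The mean level of the 51 members in a cell, here the member score, was lower in CD11b+ GMP-P than in GMP, and lowest in the Myelo states. The score was 5.2 ± 0.69 (SD, 45 cells) in GMP and 3.30 ± 1.36 (SD, 47 cells) in CD11b+ GMP-P, a difference of -1.90. State medians in GMP were 5.70 in MP, 5.48 in Mono, 5.23 in cMoP, 5.20 in Gran-1, 4.62 in Multi-Lin and 4.18 in Gran-2. In CD11b+ GMP-P they were 4.83 in Gran-1, 4.19 in Gran-2, 3.55 in Myelo-1, 2.19 in Myelo-2 and 0.81 in Myelo-4. Neighbours in this order overlapped within GMP, where Mono cells ran from 4.29 to 6.18 and MP cells from 4.69 to 6.29. Gran-2 cells of CD11b+ GMP-P (2.73 to 5.80) overlapped Myelo-1 cells (3.14 to 3.94), while the 3 Myelo-4 cells (0.40 to 1.13) lay below all Myelo-1 cells. The number of members above 0 in a cell followed the same course, with a median of 44 of 51 in GMP, 39 in the Gran cells of CD11b+ GMP-P, 24 in Myelo-2 and 15 in Myelo-4. The members' share of all TPM had a median of 1.06% in GMP, 0.79% in the Gran cells and 0.30% in the Myelo cells, and reached 0.017% in 1 Myelo-4 cell.

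**Figure D1:**
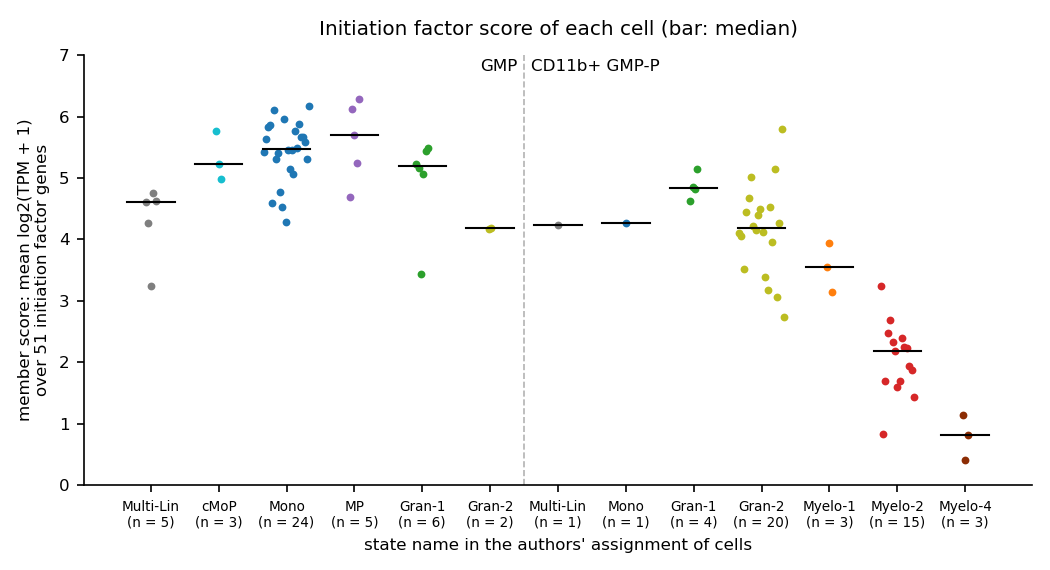
Member score (mean log2(TPM + 1) over 51 initiation factor genes, vertical axis) of each of 92 cells by gate and state; points are cells and bars are medians. GMP states sit between medians of 4.18 and 5.70, and the Myelo states of CD11b+ GMP-P step down from 3.55 to 2.19 and 0.81.

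The score moved closely with the number of genes above 0 in a cell. Across all 92 cells Pearson's r was 0.92 (Spearman's rho 0.89), within GMP 0.82 and within CD11b+ GMP-P 0.93. It was 0.77 in the 24 Mono cells, 0.80 in the 20 Gran-2 cells and 0.80 in the 15 Myelo-2 cells of their gates. The points are cells, and both measures come from the same library of a cell. Against the granule genes' share of TPM, r was -0.91 in CD11b+ GMP-P and -0.11 in GMP. With the cell's mean over all 7803 compared genes subtracted, the score still had a median of 2.21 in GMP, 1.55 in the Gran cells and 0.58 in the Myelo cells. In the 3 Myelo-4 cells this relative score ran from -0.61 to 0.23, so there the initiation factors stood at about the level of the average compared gene.

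**Figure D2:**
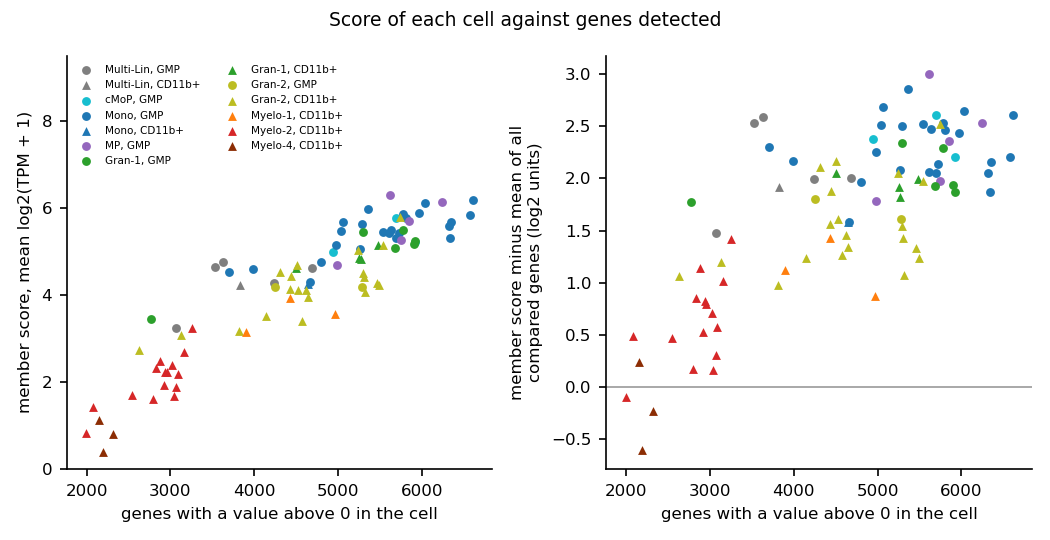
Left, member score of each cell against the genes above 0 in that cell; right, the score minus the cell's mean over all compared genes. Circles are GMP cells, triangles CD11b+ GMP-P cells, and colours are states; the score climbs with genes detected (r = 0.92 over 92 cells), and Myelo-2 and Myelo-4 cells occupy the low end of both panels.

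Between the gates the whole family leaned one way, as did most compared genes, whose median difference was -0.74. All 51 members had a lower mean log2(TPM + 1) in CD11b+ GMP-P, although Eif1 and Eif4h were not lower once the medians of widely detected genes were made equal, which moved the median of all genes to -0.496. By mean TPM, Eif2ak2 (0.961), Eif4g3 (0.627), Eif4e3 (0.246) and Eif2ak1 (0.0589) were not lower either. In 40 members the mean was lower by 2-fold or more (a difference of -1 or less on the log2 scale), while 0 were higher by that much. The 40 include Eif2b3, Eif2b5 and Eif2d, which passed the detection rule in GMP alone. The background was broad too: 39% of all compared genes were lower by 2-fold or more and 2.72% higher. The members' median difference was -1.88 against -0.74 for all compared genes, and 42 of the 51 lay below that median. In GMP the members averaged 5.2 and all compared genes 2.98, and a gene near 0 has little room to be lower. Genes of like starting level were not compared, so the part of that level in the excess was not tested. The count depended on which cells entered and how they were summarised. When 25 cells per gate were paired by their number of genes above 0, 24 members were 2-fold or more lower and 1 higher, against 14.8% and 10.5% of all genes, with medians of -0.92 and -0.12. Among all genes that moved by 2-fold or more, 58.5% were lower in those matched cells, against 93.5% over all cells. Without the Myelo cells 22 members were lower (18.1% of all genes, medians -0.87 and -0.32), and by mean TPM 18 were (30.2% of all genes, medians -0.89 and -0.52). In each of these 3 settings the members' median stayed below that of all genes. Reads of 8 members (Eif1, Eif1a, Eif1ax, Eif2s3x, Eif2s3y, Eif4a1, Eif4a2 and Eif5a) can be shared with near-identical copies, and of the 43 others 33 were lower by 2-fold or more.

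Within CD11b+ GMP-P, where gate and date code are shared, the 21 Myelo cells were lower than the 24 Gran cells in nearly every initiation factor. By 2-fold or more, 43 of 51 members were lower and 0 higher, against 46.8% and 1.99% of all compared genes, and the members' median was -1.95 against -0.93. Here too the members started higher, at a mean of 4.28 in the Gran cells against 2.66 for all compared genes. The part of that starting level was not tested. The score was 2.09 ± 0.92 (SD, 21 cells) in Myelo and 4.28 ± 0.72 (SD, 24 cells) in Gran, and 17 of the 21 Myelo cells scored below every Gran cell. This difference went with genes detected. Only 5 Myelo cells (3 Myelo-1 and 2 Myelo-2) could be matched to Gran cells on genes above 0. Among those 5 pairs 18 members were lower and 7 higher by 2-fold or more (28.4% and 19.1% of all genes), and the median was -0.15 against -0.10 for all genes. Setting the 3 Myelo-1 cells against 9 Gran-2 cells in the same range of genes detected, an alternative added after seeing the data, gave 23 lower and 8 higher (24.6% and 21.2% of all genes), with medians of -0.81 and -0.14. Both sets hold the same 3 Myelo-1 cells, and the other 16 Myelo cells found no unused Gran cell within 10% of their genes above 0. With the granule genes left out of the TPM total, 42 members and 43.9% of all genes were lower by 2-fold or more, with medians of -1.79 and -0.825.

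**Figure D3:**
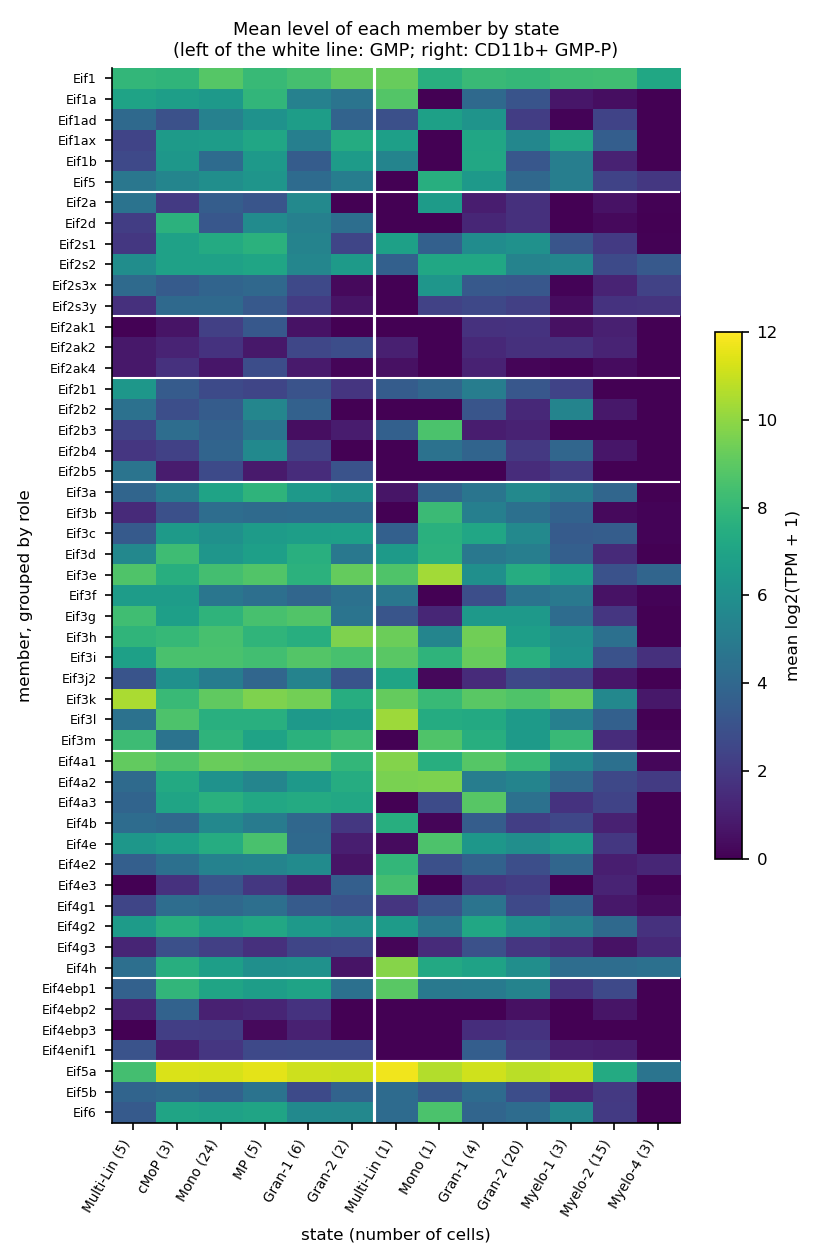
Mean log2(TPM + 1) of each of the 51 members (rows, grouped by role) in each state (columns, number of cells in brackets), GMP left and CD11b+ GMP-P right of the white line; columns of 1 to 3 cells are single or few cells. Nearly all rows darken towards Myelo-2 and Myelo-4, and the top row, Eif1, stays bright throughout.

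Across the 6 states with at least 5 cells, the lowest mean was in Myelo-2 for 38 of the 51 members (74.5%), against 50.5% of all compared genes. Multi-Lin held the lowest mean of 10 members and Gran-2 of 3. The highest mean was in MP for 20 members, in GMP Gran-1 for 12 and in Mono for 11, shares of 39.2%, 23.5% and 21.6% against 34.5%, 20.6% and 18.7% of all genes.

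Over all cells, Eif1 was the exception among the well expressed members. It encodes eIF1, the small protein that keeps the scanning ribosome from stopping at the wrong codon. Eif1 was above 0 in all 92 cells. It stood at 30.3 to 1310 TPM (median 303) in the 21 Myelo cells and at 29.2 to 550 TPM (median 300) in the 24 Gran cells of CD11b+ GMP-P. The 2 ranges overlapped almost completely. The means were 8.16 ± 1.57 and 8.01 ± 1.05, a difference of 0.15, and that difference was between 0.01 and 1.73 in 14 alternative settings. The 3 Myelo-4 cells were far apart, with 30.3, 65.7 and 1310 TPM. Against GMP (90.4 to 887 TPM, median 398) CD11b+ GMP-P was lower by 0.46 on the log2(TPM + 1) scale, which turned to 0.39 higher with equal medians of widely detected genes and 0.14 higher without the granule genes. Within a cell, Eif1 made up a median of 3.88% of the members' TPM in GMP, 4.03% in the Gran cells and 11.1% in the Myelo cells, an alternative measure added after seeing the data. Over all cells few abundant genes were likewise not lower. Of 530 compared genes with a mean of at least 7 in the Gran cells, 28 (5.28%) were at or above 0 in Myelo minus Gran. Of the 7 initiation factors that abundant, Eif1 was the 1 at or above 0. Eif1 was singled out by these same values, so the shares describe it and are no test of it. Reads of Eif1 can be shared with Eif1b and processed copies, and its values carry that limit.

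The other member that was not lower, Eif4ebp2, was scarcely present. Eif4ebp2, which encodes a 4E-BP, was above 0 in 2 of 21 Myelo and 5 of 24 Gran cells, with means of 0.48 and 0.45 and a difference of 0.03. A further 6 members were lower by less than 2-fold: Eif2ak4 (-0.03), Eif2b2 (-0.36), Eif2ak2 (-0.50), Eif2s3y (-0.74), Eif2ak1 (-0.92) and Eif2b5 (-0.99). Their means in the Gran cells ran from 0.32 for Eif2ak4 to 2.31 for Eif2s3y. By mean TPM, Eif2ak1 (1.87), Eif2ak4 (1.09) and Eif2s3y (0.492) were higher, while Eif2b2, Eif2ak2 and Eif2b5 did not change sign. Eif2b2 was higher by 2.8 in the 5 matched pairs and by 4.55 for Myelo-1 against Gran-2 in the same range. Over all compared genes, 13.2% were at or above 0 over all cells. Which members were at or above 0 depended on the cells compared: in the 5 matched pairs there were 23 (45.1%), Eif1 among them, against 46.2% of all compared genes.

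**Figure D4:**
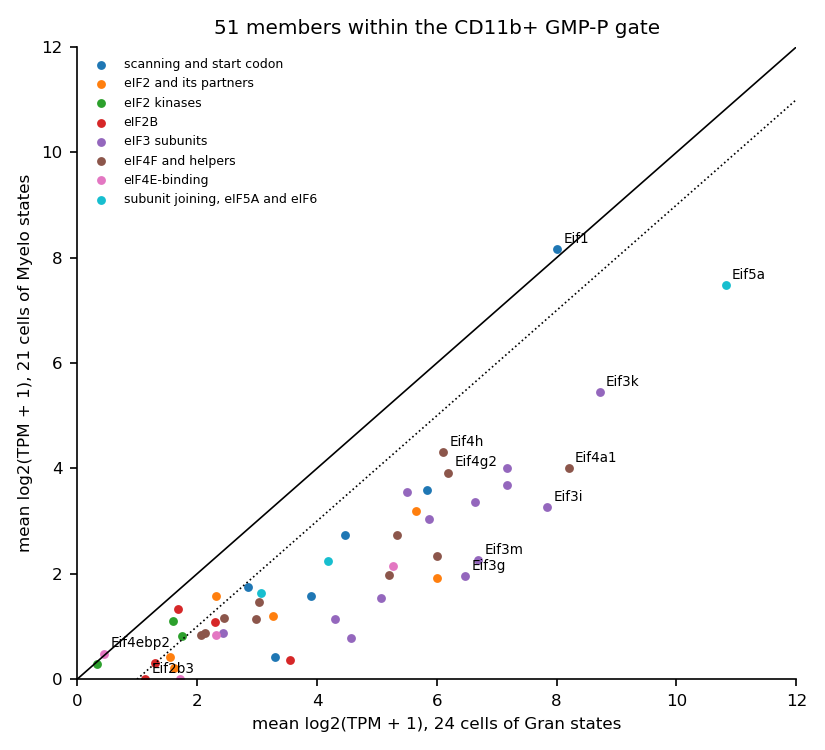
Mean log2(TPM + 1) of the 51 members in 24 Gran cells (horizontal) and 21 Myelo cells (vertical) of CD11b+ GMP-P; the solid line marks equal levels and the dotted line a 2-fold lower level in Myelo. Eif1 lies just above the solid line at about 8 on both axes, and every other member with a Gran mean above the 2.31 of Eif2s3y lies below the dotted line.

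Over all cells the other members grouped under scanning and the start codon were lower. The grouping does not show that each of them, Eif1ad included, acts in scanning. Eif1a, which encodes a form of eIF1A, had the lowest difference of the 51 members between the gates. It stood at 0 to 1010 TPM in GMP (median 180, above 0 in 43 of 45 cells) and 0 to 819 TPM in CD11b+ GMP-P (median 0, above 0 in 21 of 47). The ranges overlapped, with most GMP cells high and most CD11b+ GMP-P cells at 0, and the difference was -4.41. It was -3.09 without the Myelo cells and -3.44 in matched cells. Only 3 of 21 Myelo cells held Eif1a at all. Eif1ax, the X-linked form of eIF1A, averaged 6.07 in GMP, 5.83 in the Gran cells and 3.58 in the Myelo cells. Reads can be split between these 2 genes. Eif5, the GTPase activator that acts on eIF2 at the start codon, averaged 5.54 in GMP, 4.46 in the Gran cells and 2.73 in the Myelo cells. In the 5 matched pairs of Myelo and Gran cells, Eif1a was at -5.02, but Eif5 (2.45), Eif1ax (2.14), Eif1ad (1.37) and Eif1b (0.92) were higher. For Myelo-1 against Gran-2 in the same range Eif1b (3.2), Eif1ax (1.76) and Eif5 (0.82) were higher. Eif1a (-1.79) and Eif1ad (-2.29) were lower there.

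The 6 genes of eIF2 and its partners were all 2-fold or more below GMP in the CD11b+ gate, and 5 of 6 were in Myelo against Gran cells. The shares of all compared genes were 39% and 46.8%, and Eif2d passed the detection rule in GMP alone. Eif2s1 encodes the alpha subunit, the site of regulatory phosphorylation. It stood at 0 to 385 TPM (median 110) in the Gran cells and at 0 to 378 TPM (median 0) in the Myelo cells, where 9 of 21 cells had any. The difference was -4.09, and it was -0.46 in the 5 matched pairs but -3.14 for Myelo-1 against Gran-2 in the same range. Eif2s2, the beta subunit, averaged 5.65 ± 2.30 in Gran and 3.19 ± 2.42 in Myelo. Eif2s3x, the gamma subunit, averaged 3.26 ± 3.29 and 1.2 ± 2.38. Eif2d, which can deliver initiator tRNA without eIF2, was above 0 in 33 of 45 GMP cells and 10 of 47 CD11b+ GMP-P cells, and differed by -3.11 between the gates.

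The genes of the exchange factor eIF2B had medians of 15.3 TPM or less in GMP, in the Gran cells and in the Myelo cells, with some cells at 0 for every subunit. Between the gates its 5 subunit genes were all lower by 2-fold or more (median -1.66), and 3 of 5 were in Myelo minus Gran. The shares of all compared genes were 39% and 46.8%. Eif2b3 and Eif2b5 passed the detection rule in GMP alone, which favoured their lower level in the other gate. Eif2b1 was above 0 in 17 of 24 Gran cells (median 13.4 TPM) and in 2 of 21 Myelo cells, a difference of -3.18. Between the gates Eif2b1 differed by -1.02, which turned to 0.41 without the Myelo cells and 0.34 in matched cells. Eif2b3 was listed at 0 in all 21 Myelo cells and above 0 in 8 of 24 Gran cells. Eif2b4 averaged 2.29 in Gran and 1.09 in Myelo.

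The eIF2 kinase genes were scarce, which left the size rule little room. Eif2ak2 encodes PKR, which responds to double-stranded RNA, Eif2ak1 the kinase that responds to low heme, Eif2ak4 the amino acid sensor GCN2, and Eif2ak3 the endoplasmic reticulum kinase PERK. Of the 3 compared, 0 were lower by 2-fold or more in either comparison, with medians of -0.45 between the gates and -0.50 in Myelo minus Gran. The shares of all compared genes were 39% and 46.8%. Eif2ak4 had a Gran mean of 0.32, so a fall of 1 in Myelo was not possible. The Gran means of Eif2ak1 and Eif2ak2 were 1.74 and 1.60. Their levels were low: Eif2ak2 had a median of 0.85 TPM in GMP, 0.545 in the Gran cells and 0.30 in the Myelo cells, and single cells reached 398 TPM. By mean TPM, Eif2ak1 (1.87) and Eif2ak4 (1.09) were higher in Myelo minus Gran, while Eif2ak2 did not change sign. Between the gates Eif2ak2 (0.961) and Eif2ak1 (0.0589) were higher by mean TPM, and Eif2ak4 did not change sign. Single cells weigh heavily in such means, and the highest Myelo cell held 948 TPM of Eif2ak1. Eif2ak3 averaged 0.43 in Gran and 0.39 in Myelo.

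The eIF3 subunits made up the group with the lowest median in Myelo minus Gran. All 13 compared subunits were lower by 2-fold or more there (median -3.28, from -4.58 to -1.56), as were 12 of 13 between the gates. The shares of all compared genes were 46.8% and 39%. Eif3i, the member with the lowest difference, stood at 0 to 800 TPM (median 423) in Gran and 0 to 790 TPM (median 0.5) in Myelo cells. Most Gran cells were high and most Myelo cells near 0, although 8 of 21 Myelo cells were above 10 TPM. The means were 7.84 ± 2.48 and 3.26 ± 3.84 and the difference was -4.58. In the 5 matched pairs it was 0.12. Eif3g, a subunit that acts in scanning, was above 0 in 23 of 24 Gran cells (median 220 TPM) and in 7 of 21 Myelo cells, a difference of -4.52. It was -3.55 in the 5 pairs, while for Myelo-1 against Gran-2 in the same range both genes were lower, Eif3g at -2.41 and Eif3i at -2.38. Eif3m differed by -4.43 over all cells, by 0.09 in the pairs and by 0.30 in the same range. Eif3k, the highest subunit, stood at 0 to 955 TPM (median 166) in Myelo and 0.74 to 1340 TPM (median 540) in Gran cells. All 3 Myelo-1 cells held it at 290 TPM or more, and the lower cells were of Myelo-2 and Myelo-4. Eif3e averaged 8.36 in GMP, 7.17 in Gran and 3.69 in Myelo.

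Among eIF4F genes and their helpers all 11 were lower by 2-fold or more in Myelo cells, and 8 of 11 between the gates. The shares of all compared genes were 46.8% and 39%. In the 5 matched pairs of Myelo and Gran cells, only Eif4a1 of the 11 stayed lower by 2-fold or more. Eif4a2 (0.20), Eif4a3 (0.53), Eif4e (0.38), Eif4e2 (1.35), Eif4g1 (0.19), Eif4g2 (0.10), Eif4g3 (0.74) and Eif4h (0.09) were above 0 there. For Myelo-1 against Gran-2 in the same range more of the 11 were lower by 2-fold or more. These were Eif4e3 (-3.07), Eif4a1 (-2.67), Eif4a3 (-2.65), Eif4h (-1.98), Eif4a2 (-1.16) and Eif4g2 (-1.14). In that set Eif4e (1.47), Eif4g1 (0.986), Eif4e2 (0.77) and Eif4b (0.544) were above 0, and Eif4g3 was at -0.188. Eif4a1, the main helicase gene, stood at 184 to 1470 TPM (median 565) in GMP, at 72.1 to 887 TPM (median 294) in the Gran cells and at 0 to 339 TPM (median 22.4) in the Myelo cells. No GMP or Gran cell was below 72.1 TPM, whereas 8 of the 21 Myelo cells were at 10 TPM or below. The means were 8.20 ± 0.92 in Gran and 4.01 ± 3.0 in Myelo, a difference of -4.19, which was -3.01 in the 5 pairs and -2.67 for Myelo-1 against Gran-2 cells in the same range. Eif4a3, an eIF4A relative of the exon junction complex, differed by -3.47 between the gates and was above 0 in 44 of 45 GMP cells and 30 of 47 CD11b+ GMP-P cells. Eif4g2, which encodes a cap-independent relative of eIF4G, was above 0 in all 21 Myelo cells, as Eif1 was. Its level there was nevertheless lower, with a median of 24.3 TPM against 91.5 TPM in Gran. Eif4h, a helper of the helicase, differed by -0.67 between the gates, which turned to 0.22 without the Myelo cells and 1.15 in matched cells, and by -1.81 in Myelo minus Gran. Eif4e, the cap-binding protein itself, averaged 6.00 ± 3.39 in Gran and 2.34 ± 3.33 in Myelo, but 6.60 ± 1.38 in the 3 Myelo-1 cells.

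**Figure D5:**
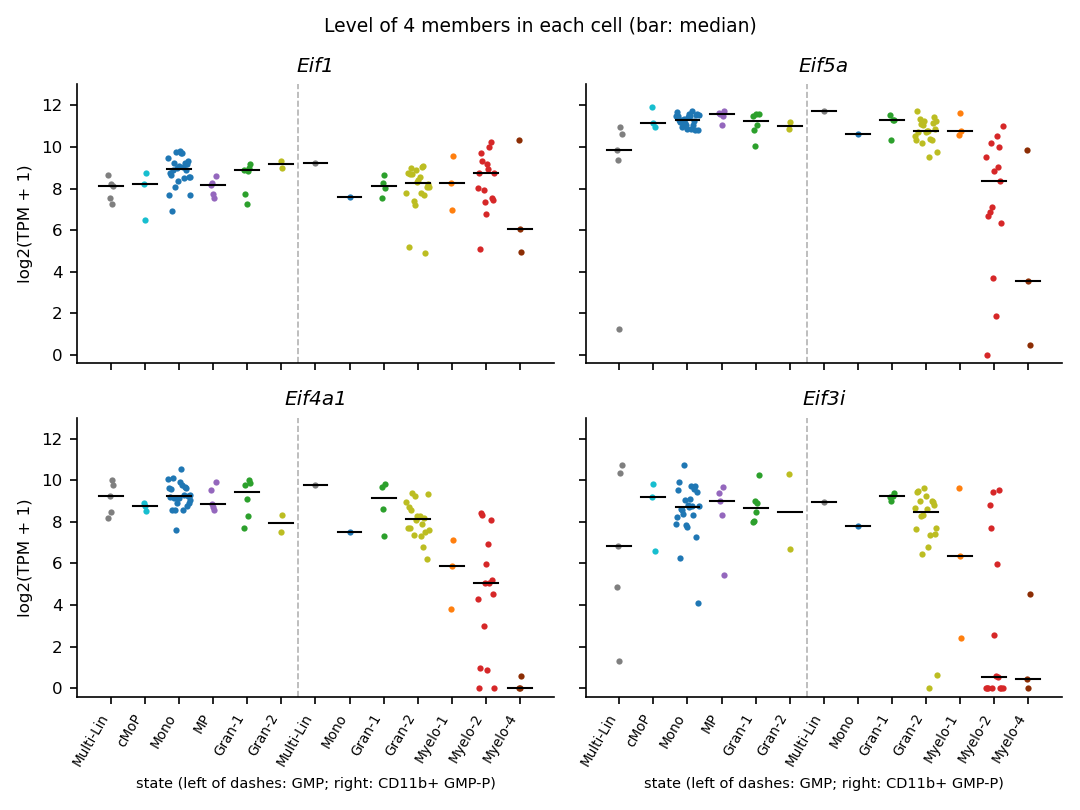
Level (log2(TPM + 1)) of Eif1, Eif5a, Eif4a1 and Eif3i in each of 92 cells by state, with medians as bars. Eif1 was above 0 in all 15 Myelo-2 cells (33.6 to 1210 TPM), Eif5a in 14, Eif4a1 in 13 and Eif3i in 8 of them.

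The 4E-binding genes had 1 well expressed member. Eif4ebp1, which holds eIF4E when mTOR is inactive, stood at 0.68 to 652 TPM (median 57.4) in Gran and 0 to 313 TPM (median 0) in Myelo cells, a difference of -3.13. The difference was -3.6 in the 5 pairs and -3.51 for Myelo-1 against Gran-2 in the same range. Eif4ebp3 was above 0 in 10 of 24 Gran and 0 of 21 Myelo cells. Eif4enif1, which shuttles eIF4E to the nucleus, averaged 2.32 in Gran and 0.84 in Myelo.

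Eif5a was the most abundant initiation factor gene. Its protein, which carries the modified amino acid hypusine, relieves stalled ribosomes during elongation. Eif5a stood at 1.37 to 3890 TPM (median 2370) in GMP, 728 to 3380 TPM (median 1800) in Gran and 0 to 3150 TPM (median 452) in Myelo cells. The 3 Myelo-1 cells (1510 to 3150 TPM) lay within the Gran range, Myelo-2 cells had a median of 330 TPM and the 3 Myelo-4 cells were at 0.39, 10.8 and 919 TPM. Myelo minus Gran was -3.34. Eif6, which keeps ribosomal subunits apart, averaged 6.30 in GMP, 4.19 in Gran and 2.25 in Myelo. Eif5b, the subunit joining factor, averaged 3.75, 3.07 and 1.64 in the same order.

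Of the 51 members, 7 were lower by 2-fold or more in all 3 sets of cells, that is, all Myelo against all Gran, the 5 matched pairs, and Myelo-1 against Gran-2 in the same range. They were Eif1a, Eif2b3, Eif2s3x, Eif3g, Eif3l, Eif4a1 and Eif4ebp1. That is 13.7% of the members, close to the 11.6% of all compared genes (909 of 7803) that met the same 3 conditions. This count was added after seeing the data, and the sets share cells.

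Within the GMP gate the states differed less. These comparisons share the 24 Mono cells. In the 6 Gran-1 cells 18 members were 2-fold or more below Mono and 4 above, against 22.1% and 13.4% of all genes, with medians of -0.42 and -0.18. Eif4e stood at 0 to 276 TPM (median 23.6) in Gran-1 and 11.5 to 828 TPM (median 230) in Mono, a difference of -3.32. Eif2a, an eIF2-independent tRNA carrier, was the highest difference at 2.14, with medians of 184 and 12.9 TPM and overlapping ranges. The eIF3 subunits were at a median of -0.10 in this comparison, with 11 of 13 within 2-fold.

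In the 5 Multi-Lin cells 29 members were 2-fold or more below Mono and 6 above, against 45.4% and 8.29% of all genes (medians -1.16 and -0.84). They also had fewer genes above 0, 3069 to 4688 against 3700 to 6612. Basophil and mast cell markers (Cpa3, Ms4a2 and Mcpt8) summed to 171 to 5330 TPM in them, with a median of 0 TPM in Mono. The part of either in these differences was not tested. In 3 matched pairs the members' median turned to 0.18. Eif2s1 stood at 0 to 116 TPM (median 0.18) in Multi-Lin and 15.9 to 600 TPM (median 180) in Mono, a difference of -5.39, with 1 of 5 and 24 of 24 cells above 10 TPM. Eif2b1 went the other way, with medians of 126 and 0.655 TPM and a difference of 3.66. Eif3k, at 745 to 3410 TPM, was higher than in Mono (138 to 1370 TPM) by 1.41, and Eif3f, another eIF3 subunit, by 1.92.

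The 5 MP cells were close to Mono in this family: 4 members were lower by 2-fold or more and 8 higher, against 13.5% and 20.2% of all genes, and 39 of 51 lay within 2-fold. The median was 0.18 against 0.09. Eif2d was the highest at 2.53 (5.56 to 134 TPM in MP, 0 to 453 TPM in Mono), and Eif1b, the paralog of Eif1, was next at 2.24. Eif4ebp3 was the lowest at -1.91.

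Shares between related genes within a cell do not depend on the total of other genes. Eif4a2, the second eIF4A gene, took a median of 14.6% of the sum of Eif4a1 and Eif4a2 in GMP cells (0 to 51.2%), 26.6% in the Gran cells (0 to 76.7%) and 11.7% in 16 Myelo cells with at least 10 TPM of the pair (0 to 100%). The 3 ranges overlapped. Eif4g2 outweighed Eif4g1, the classical scaffold gene, with medians of 92.6%, 91.3% and 100% of their sum in the same order. Eif4g3 took 9.95% and 23.7% of its sum with Eif4g1 in GMP and Gran cells, and only 3 Myelo cells held 10 TPM of that pair. Eif4e2, the repressive relative of Eif4e, took 24.9%, 10.5% and 33.8% of their sum, the last in 9 cells. Eif1b took 7.29%, 4.14% and 0% of its sum with Eif1. In GMP single cells ran from 0% to 100% for the Eif4e2 share, so its median says little about any 1 cell. Eif2s3y, the Y-linked copy of the eIF2 gamma gene, took 52.5%, 17.4% and 49.2% of its sum with Eif2s3x, the last in 6 cells. Eif4ebp2 took a median of 0% of its sum with Eif4ebp1 in GMP, Gran and Myelo cells. Eif2ak2 took 13.9% of its sum with Eif2ak1 in 18 GMP cells and 6.27% in 10 Gran cells.

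Other genes of translation were lower alongside. Of 41 genes in the lists, 36 were compared. By 2-fold or more, 25 were lower and 1 higher between the gates (median -1.73), where 39% of all compared genes were lower and the median was -0.74. In Myelo minus Gran 25 were lower and 0 higher (median -1.78), against 46.8% and a median of -0.93. All 7 elongation genes were lower between the gates. In Myelo minus Gran the lowest were Eef1b2 (8.38 in Gran and 2.68 in Myelo, a difference of -5.7) and Eef1g (-5.55), both parts of the exchange factor of the tRNA carrier eEF1A. Eef2k, the kinase of eEF2, was at -0.87. Pdcd4, an inhibitor of eIF4A, averaged 9.98 in GMP, 8.63 in Gran and 2.97 in Myelo, a Myelo minus Gran difference of -5.66, so the means of the helicase gene and of its inhibitor were both lowest in the Myelo states. Pabpc1, the poly(A)-binding protein, was at -3.83 and Abce1, the ribosome recycling factor, at -3.13. Of the 9 mTOR and eIF4E kinase genes, 2 were lower by 2-fold or more in each comparison. In Myelo minus Gran these were Rheb (-1.77) and Rps6kb1 (-1.0). Mlst8 was at 0.47 and Tsc1 at 0.17, and all these Gran means were 4.34 or less. Mtor, Mlst8, Rps6kb2, Tsc1 and Tsc2 had Gran means from 0.40 to 0.92, too low for a fall of 1 in Myelo. The count therefore says little about these genes. Ppp1r15a, a phosphatase subunit that reverses eIF2 phosphorylation, was at -3.75 between the gates, and Atf4, a transcription factor of that pathway, at -2.66. Asns, a target of ATF4, was higher between the gates by 1.27 and at -0.92 in Myelo minus Gran, where Atf4 was at -1.92. Dohh and Dhps, which make hypusine, were at -1.21 and -1.08 in Myelo minus Gran. Myc, whose protein is known to drive genes of protein synthesis, averaged 6.43 ± 2.72 in GMP, 3.33 ± 3.30 in Gran and 0.54 ± 1.57 in Myelo.

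Since Myc binds the E-box CACGTG (a palindrome, so the same on both strands), the members' promoters were searched for it, from 250 bases before to 50 after each start in the RefSeq table for GRCm38.p6. Of 40 members with a promoter there, 9 held it (22.5%): Eif1b, Eif3a, Eif3f, Eif3k, Eif4a1, Eif4e, Eif4g1, Eif4h and Eif5a. The share was 8.09% of all 27025 genes in the table and 12.6% of 5954 compared genes. The core motif of GFI1, AATCACNGC on either strand, was in 0 of 40 members and 1.05% of all genes. A match says only that these letters are in the window. The upstream 150 bases are shown for Eif1, the well expressed member that was not lower in Myelo, which has no E-box in its window, and for 3 members with one, in capitals. The 150 bases of Eif1 lie at chr11:100319799-100319948 on the plus strand, Eif3k at chr7:28981889-28982038 on the minus strand, Eif4h at chr5:134639410-134639559 on the minus strand and Eif4g1 at chr16:20672577-20672726 on the plus strand.
Eif1: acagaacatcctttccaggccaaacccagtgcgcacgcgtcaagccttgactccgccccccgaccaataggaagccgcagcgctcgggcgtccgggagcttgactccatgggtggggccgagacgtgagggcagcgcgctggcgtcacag
Eif3k: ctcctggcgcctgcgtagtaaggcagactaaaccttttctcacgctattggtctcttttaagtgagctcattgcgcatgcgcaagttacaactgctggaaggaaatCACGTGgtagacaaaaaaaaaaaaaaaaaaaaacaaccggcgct
Eif4h: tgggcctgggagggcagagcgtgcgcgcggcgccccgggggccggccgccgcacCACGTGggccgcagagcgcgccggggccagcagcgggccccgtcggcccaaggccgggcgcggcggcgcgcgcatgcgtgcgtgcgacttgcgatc
Eif4g1: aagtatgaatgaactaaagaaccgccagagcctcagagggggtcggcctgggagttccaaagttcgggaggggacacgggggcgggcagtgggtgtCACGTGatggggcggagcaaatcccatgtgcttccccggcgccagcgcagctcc
The E-box starts 44 bases before the start of Eif3k, 96 before that of Eif4h and 54 before that of Eif4g1, whose window holds another, 15 bases past the start and outside the printed stretch. In Myelo minus Gran, Eif3k was at -3.28, Eif4h at -1.81, Eif4g1 at -1.84 and Eif1 at 0.15. Of the other members with an E-box, Eif4a1 was at -4.19, Eif3f at -3.16, Eif1b at -2.33 and Eif3a at -1.95. All 9 were lower by 2-fold or more, as were 43 of the 51 members. Any part of the E-box in these differences was not tested.

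Across the 51 members, a longer median transcript went with a lower mean level (Spearman's rho -0.37) and with a less negative Myelo minus Gran difference (rho 0.38). Members at low levels have little room to be lower, and the part of level in the second correlation was not tested. Each length is the median over all protein-coding entries of a gene (752 bases for Eif4g2). It need not be that of the transcript quantified. The points are genes of 1 family measured in the same cells and are no independent replicates. Eif5b, at 7797 bases the longest, averaged 3.09 over all cells, and Eif3k, at 774 bases, 8.21.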

How the data were processed

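The authors deposited log2 values per gene and cell; they are log2(TPM + 1), since without the Ly6g row each cell's TPM total lay from 999999.5 to 1000001. The submitters' processing notes name the aligner Bowtie2, the quantifier RSEM and the genome build mm9, without versions. The authors' second file gives each cell 1 of 9 state names. Depth is unknown, and 80.9% of values were 0. All cells were kept, and doublets were not called; 0 columns belonged to other samples.

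Differences are those of mean log2(TPM + 1) over cells, with a pseudocount of 1 and a size rule of 2-fold, which understates changes of low genes. Each gate is 1 sample, so no p-value was computed. The 5 comparisons covered all 7803 genes above 0 in 25% or more of the cells in either gate. The difference script was checked on simulated data. Cells were matched one to one, at most 10% apart in genes above 0. Transcript lengths are from GENCODE for GRCm38, a later build than mm9. Members, roles and gene lists were chosen with earlier results of these data known. Text names up to 3 members per role by level, those with the largest differences, those at or above 0 in Myelo minus Gran, paralog pairs, and up to 2 extremes per pathway list; other names were chosen after their values were seen. Python 3.11.15, numpy 2.4.6, pandas 2.3.3 and scipy 1.17.1 were used. Alternatives were other pseudocounts and filters, mean TPM, medians, 2 rescalings, matched cells and leaving out states or members; Myelo-1 against Gran-2 in 1 range of genes detected, leaving out Myelo-4, and the share of Eif1 were added after seeing the data.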

Additional observations from a re-analysis of the deposited data

Results flagged for a closer look

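The member score of 1 GMP cell of the Gran-1 state, cell 25, stood apart from the other 5 Gran-1 cells of that gate. It was 3.44, while the others lay between 5.07 and 5.49, and the gap to the nearest made up 0.794 of the range of the 6 cells. Cell 25 had 2775 genes above 0, the fewest of the GMP gate. Scores of 8 groups of cells were examined in this way, and chance alone sets apart about 1 group in 20.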

How the results depend on the processing

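Between the gates, 18 members were at least 2-fold lower by the log2 of the mean TPM plus 1, 24 in matched cells and 22 without the Myelo cells, against 40. Among members that differed by 2-fold or more, these differences turned in matched cells: Eif2b1 0.342, Eif2s1 0.287, Eif2s3x 0.399 and Eif3l 0.339. Without the Myelo cells Eif2b1 turned to 0.407. Of smaller differences, Eif4h (1.15), Eif2ak1 (0.902), Eif4ebp3 (0.414), Eif3b (0.406), Eif4g3 (0.142) and Eif2ak2 (0.098) turned in matched cells, and Eif3b (0.684), Eif4h (0.222), Eif4ebp3 (0.0741) and Eif4e3 (0.013) without the Myelo cells. By mean TPM Eif2ak2 (0.961), Eif4g3 (0.627), Eif4e3 (0.246) and Eif2ak1 (0.0589) turned.

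In Myelo minus Gran, a pseudocount of 0.1 TPM gave a median of -2.97, a score difference of -3.18 and 1 member at or above 0. A pseudocount of 10 TPM gave 28 members at least 2-fold lower, a median of -1.07 and a score difference of -1.25. The members at or above 0, which were 2, numbered 4 with no filter or for Myelo-2 against Gran-2 alone (where Eif1ad turned to 0.231). They numbered 1 with the 50% filter or without members that have near-identical copies, 7 by mean TPM (where Eif1ax turned to 0.0747 and Eif2a to 0.00804) and 10 by medians over cells. By mean TPM the smaller differences of Eif2ak1 (1.87), Eif2ak4 (1.09) and Eif2s3y (0.492) turned too. In the 5 matched pairs 18 members were at least 2-fold lower, the median was -0.149, the score difference -0.623 and 23 members were at or above 0. Differences of 2-fold or more that turned there were Eif1ad 1.37, Eif1ax 2.14, Eif1b 0.92, Eif2s2 0.74, Eif3c 0.998, Eif3i 0.122, Eif3k 1.42, Eif3m 0.0938, Eif4a2 0.201, Eif4a3 0.528, Eif4e 0.375, Eif4e2 1.35, Eif4enif1 0.63, Eif4g1 0.186, Eif4g2 0.0987, Eif4g3 0.737, Eif4h 0.0888, Eif5 2.45 and Eif6 0.378, and of smaller ones Eif2b2 (2.8), Eif2ak1 (0.281) and Eif4ebp2 (-0.0908). For Myelo-1 against Gran-2 cells of like genes detected, a setting added after seeing the data, the values were 23, -0.805, -0.557 and 20. There the differences of 2-fold or more that turned were Eif1ax 1.76, Eif1b 3.2, Eif2b4 1.44, Eif2s2 0.796, Eif3e 0.27, Eif3f 1.13, Eif3j2 0.0387, Eif3m 0.298, Eif4b 0.544, Eif4e 1.47, Eif4e2 0.77, Eif4g1 0.986, Eif5 0.822, Eif5a 0.136 and Eif6 1.81, and of smaller ones Eif2b2 (4.55), Eif2ak2 (1.24), Eif2b5 (0.57) and Eif4ebp2 (-0.805). The cause was not tested; these 2 settings hold few cells.

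Within GMP, a pseudocount of 10 TPM gave 9 members at least 2-fold lower in Gran-1, 18 in Multi-Lin (median -0.59) and 1 in MP. Mean TPM gave 18 in Multi-Lin (median -0.292) and 9 in MP, and matched cells 17 in Multi-Lin (median 0.181, which turned) and 7 in MP. Of 1404 single member differences under the alternatives, 74 changed sign: 42 of those that were 2-fold or more over all cells and 32 smaller ones. No paired analysis was possible because the cell numbers of the gates do not overlap and each gate is 1 sample. Depth per cell is unknown, so a value of 0 can be a transcript that was missed.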
